A study of Mus musculus with 6 samples.

Results

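The unfolded protein response of the endoplasmic reticulum (ER) was followed through 32 genes in mouse liver. They were chosen by symbol as ER chaperones, components of ER-associated degradation and genes of the IRE1, ATF6 and PERK arms. Their levels were not a criterion, but the choice was made with earlier results of these data known. All 32 matched 1 row each of the 37991 Ensembl gene rows, and all 32 passed the low-count filter that left 12631 genes for testing. Liver mRNA was sequenced from FVB mice aged 84 days, and the comparison set 3 heterozygous livers (Ing5 MommeD48/+, Het) against 3 Ing5 +/+ livers (WT). Ing5 encodes a chromatin reader found in histone acetyltransferase complexes, and the allele arose in a search for modifiers of transgene silencing. The labels do not give the kind of mutation, name no other allele or treatment, and do not say whether each liver came from a separate mouse. Each p-value therefore describes only how these samples vary, and that variation may be technical.

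The ER folds the proteins that a cell secretes, and hepatocytes secrete most plasma proteins. When unfolded proteins accumulate, the membrane sensors IRE1, ATF6 and PERK signal to the nucleus. IRE1 splices Xbp1 mRNA, ATF6 is cleaved to release a transcription factor, and PERK phosphorylates eIF2α, which raises translation of ATF4. XBP1 and ATF6 are known to drive chaperone and degradation genes, and ATF4 drives genes of amino acid supply and of the stress-linked factor CHOP.

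Several of these genes carry a known binding element for ATF6 and XBP1, and the matches are shown because they are the sequences through which these arms are known to act. RefSeq promoter windows (GRCm38.p6, 250 bases before to 50 bases after the start of transcription) were given for 28 of the 32 genes (a later build than the mm9 of the submitters' processing notes), and not for Hyou1, Manf, Atf6 and Derl1. The ER stress response element, searched on both strands as CCAAT and CCACG with 9 free bases between them, was found in 9 of the 28 genes (32.1%), against 39 of 32851 windows (0.119%). The genes were picked as components and known targets of the response, so this share describes the choice. The matches are printed with the fixed letters in capitals, each read along the strand named.
Hspa5 (chr2:34772025-34772043, + strand): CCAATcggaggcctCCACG
Calr (chr8:84847075-84847093, + strand): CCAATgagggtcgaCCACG
Derl3 (chr10:75893242-75893260, - strand): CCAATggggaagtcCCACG
Hsp90b1 (chr10:86705638-86705656, - strand): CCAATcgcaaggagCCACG
Hsp90b1 (chr10:86705533-86705551, + strand): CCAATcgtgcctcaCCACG
Canx (chr11:50325800-50325818, - strand): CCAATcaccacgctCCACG
Pdia6 (chr12:17266491-17266509, + strand): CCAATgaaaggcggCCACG
Dnajc3 (chr14:118937827-118937845, + strand): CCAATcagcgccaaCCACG
Creld2 (chr15:88819520-88819538, - strand): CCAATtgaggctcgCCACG
Syvn1 (chr19:6046532-6046550, + strand): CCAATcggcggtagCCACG
The shorter ER stress response element II, searched on both strands as ATTGG and CCACG with 1 free base between them, was found in Herpud1 and Dnajb11, which is 7.14% of the genes with a window, against 12 of all windows (0.0365%). No match to it overlapped a match to the longer element.
Herpud1 (chr8:94386377-94386387, + strand): ATTGGgCCACG
Dnajb11 (chr16:22857852-22857862, + strand): ATTGGcCCACG
The core of the C/EBP-ATF response element bound by ATF4, searched as TGATGNAA on both strands, was found in 4 of the 28 genes (14.3%), against 1304 of all windows (3.97%).
Chac1 (chr2:119351049-119351056, - strand): TGATGcAA
Trib3 (chr2:152344039-152344046, + strand): TGATGtAA
Asns (chr6:7693225-7693232, - strand): TGATGaAA
Herpud1 (chr8:94386317-94386324, - strand): TGATGcAA
A match is a description of letters and not of a bound site, and a window without a match says only that these letters are not in it.

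**Figure D1:**
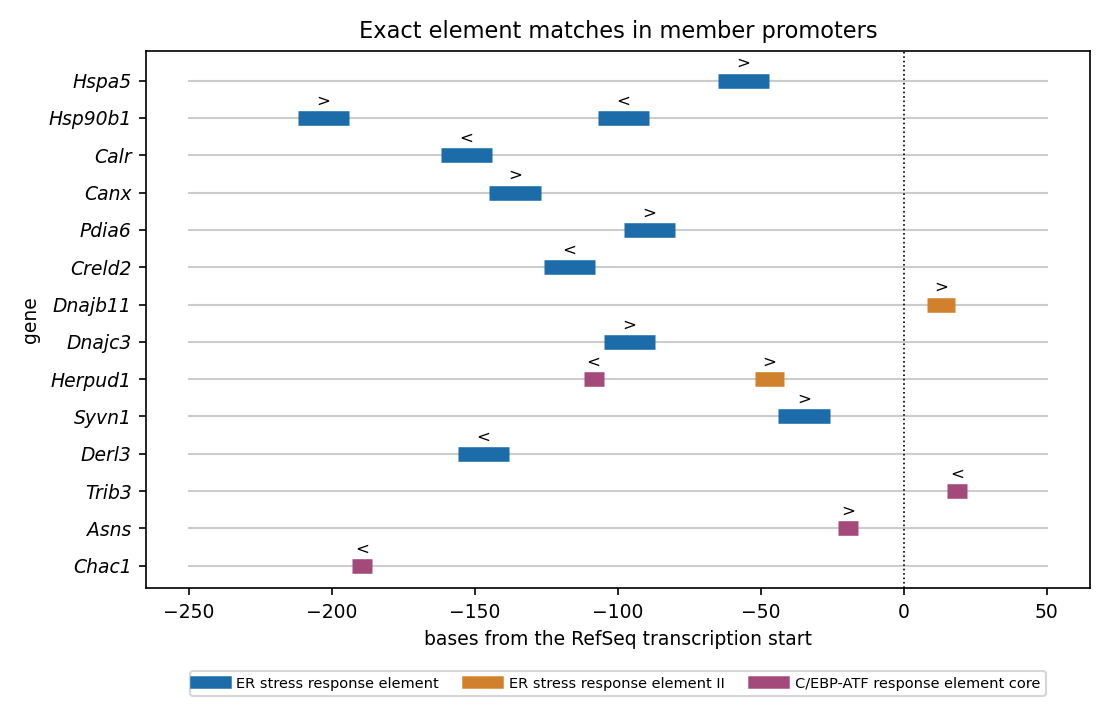
Position of each exact element match in the promoters of 14 genes, in bases from the RefSeq start of transcription, with one row per gene. Bars are matches coloured by element, and arrowheads give the strand relative to the gene. The matches to the ER stress response element begin 44 to 212 bases before the start.

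The libraries held 21402396, 21272147 and 20032822 counts in Het livers 1 to 3, against 20830886, 22041117 and 19840541 in WT livers 1 to 3. A count of 0 allows up to 3 counts, or 0.136 to 0.154 CPM (counts scaled to the TMM-adjusted library size), which covers counting error only. Ing5, the mutated gene, had 193, 217 and 180 counts in Het livers against 182, 228 and 191 in WT livers. Its log2 fold change was -0.05 (SE 0.11), with an exact two-sided permutation p of 0.8 where 0.1 is the smallest possible, so the mRNA level did not separate the genotypes. Hepatocyte markers summed to 93696 to 112023 CPM in Het livers and 88823 to 109186 CPM in WT livers, with Alb the highest. Of 15 pancreatic acinar markers, 10 had 0 counts in all 6 libraries, among them Prss1, Prss2, Cpa1 and Pnlip. Cela1 was at 38.2 to 60.5 CPM over the 6 livers, and the rest of the list summed to 0.293 to 0.644 CPM in Het livers and 0.337 to 0.681 CPM in WT livers.

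No gene of the response rose or fell in Het livers beyond the spread between livers. Of the 32, 0 passed an adjusted p of 0.05 in edgeR's quasi-likelihood test (Benjamini-Hochberg, 12631 genes), where the share of all genes was 0%. At an unadjusted p under 0.05 the count was also 0 of 32, against 4.33% of all genes (547 genes, of which 2.12% of all genes were higher and 2.21% lower in Het livers). Limma-voom and DESeq2 called 0 of the 32 genes too. The log2 fold change was above 0 for 22 genes and below 0 for 10, with a median of 0.07. Over all genes tested, 49.7% were below 0 and the median was 0.00. Every adjusted p was 0.9998. The 95% interval kept inside 1.5-fold either way in 20 genes and inside 2-fold in 27, and for the other genes a change of 2-fold could not be told from none at this spread. In bulk liver, fewer cells of a type and less RNA per cell cannot be told apart. Hsp90b1, Pdia3, Pdia4, Pdia6, Manf, Dnajb9, Syvn1, Derl2, Eif2ak3, Ddit3 and Ppp1r15a share exon bases with another annotated gene or microRNA, and since the counting strand was not given in the sources used here their counts are uncertain.

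The 3 Het livers spread widely in chaperone level. The summed level of the 14 chaperones and folding factors was 3367, 5467 and 5134 CPM in Het livers 1 to 3, against 4500, 4067 and 4086 CPM in WT livers 1 to 3. Het liver 1 was thus the lowest of the 6, Het livers 2 and 3 were the highest, and all 3 WT livers lay between. All 32 genes together made up 0.479%, 0.723% and 0.687% of the counts in Het livers 1 to 3, against 0.614%, 0.568% and 0.550% in WT livers 1 to 3.

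**Figure D2:**
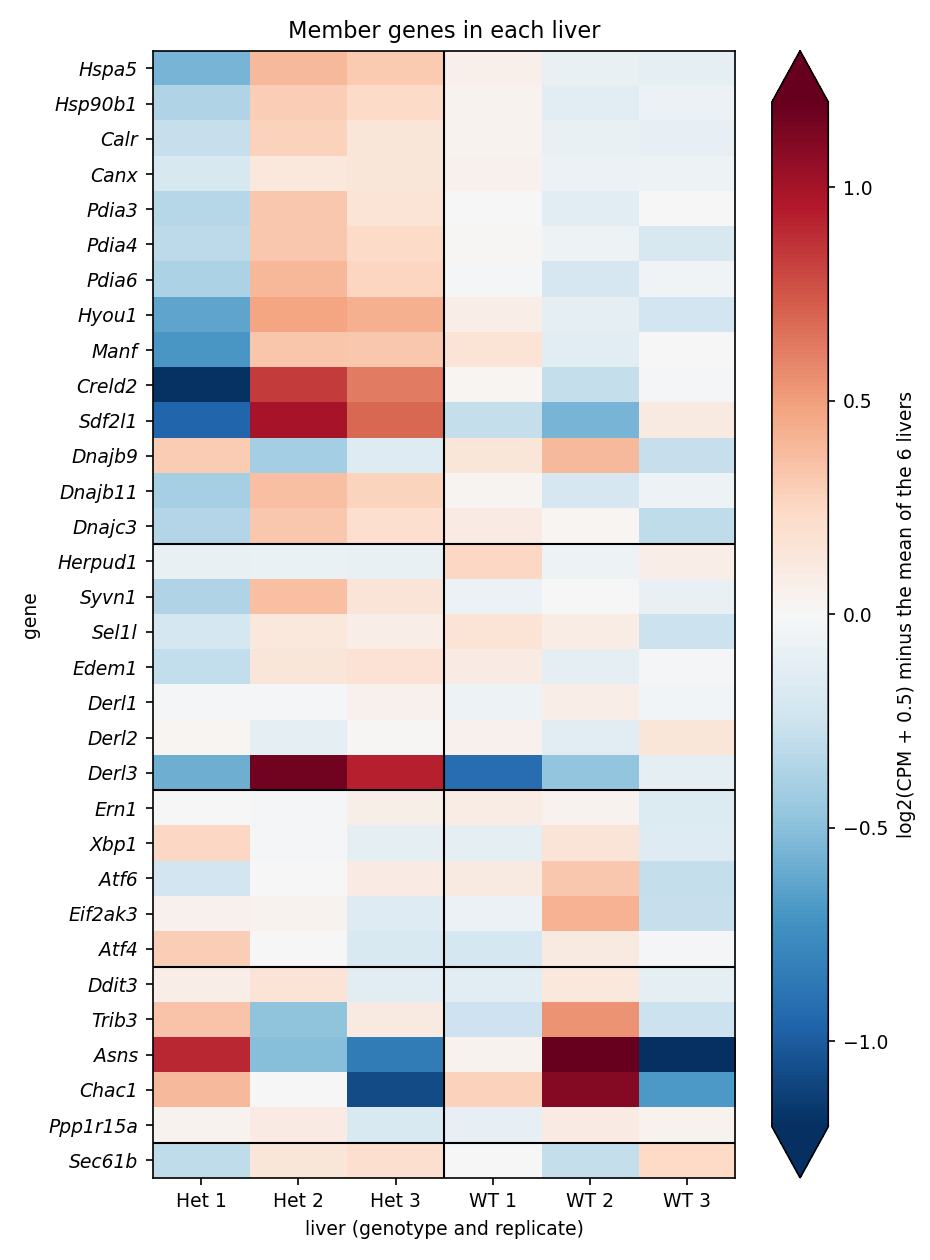
Level of the 32 genes in each liver as log2(CPM + 0.5) minus the mean of the 6 livers, with Het livers left of WT livers and black lines between roles. In 13 of the 14 chaperones at the top, Het liver 1 is the lowest and Het livers 2 and 3 are the highest, while sensors and PERK-ATF4 targets lack that order.

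Hspa5, which encodes BiP, the main ER Hsp70 chaperone and the protein that holds the sensors inactive, had 499.9, 962 and 915 CPM in Het livers 1 to 3, against 769, 691 and 684 CPM in WT livers 1 to 3. Its groups overlapped, with Het liver 1 below and Het livers 2 and 3 above every WT liver. The mean was 792 ± 254 CPM in Het livers and 714 ± 47.1 CPM in WT livers (SD, n = 3 each), a log2 fold change of 0.15 (SE 0.23, 95% interval -0.37 to 0.67). Its promoter (chr2:34771840-34772089, + strand, RefSeq, GRCm38.p6) is printed to the base before the start, with the element in capitals.
Hspa5 promoter: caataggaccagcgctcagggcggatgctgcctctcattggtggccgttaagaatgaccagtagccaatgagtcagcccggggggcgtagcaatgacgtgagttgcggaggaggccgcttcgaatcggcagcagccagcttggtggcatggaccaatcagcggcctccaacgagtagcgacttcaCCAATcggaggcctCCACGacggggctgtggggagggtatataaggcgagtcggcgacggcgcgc
Hsp90b1, the ER Hsp90 chaperone GRP94, had 622, 976 and 936 CPM in Het livers against 821, 728 and 757 CPM in WT livers. Calr, the calcium-binding lectin chaperone calreticulin, had 621, 913 and 834 CPM in Het livers against 774, 706 and 703 CPM in WT livers. Both had Het liver 1 as the lowest and Het livers 2 and 3 as the highest, with log2 fold changes of 0.14 (SE 0.17) and 0.12 (SE 0.15). Per kilobase of transcript, a scale on which levels of different genes can be compared, Calr was the highest of the 32 at 347 CPM per kb, followed by Hsp90b1 at 286 and Hspa5 at 205.

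The membrane-bound lectin chaperone Canx varied least among the chaperones, with 308, 384 and 389.8 CPM in Het livers against 363, 334 and 337 CPM in WT livers. The protein disulfide isomerases Pdia3, Pdia4 and Pdia6, which form and rearrange disulfide bonds, had the same livers at the extremes. Pdia3 had 379.6, 604 and 540.3 CPM in Het livers against 483, 438 and 481 CPM in WT livers. Pdia4 had 149 CPM in Het liver 1 and 232 and 218 CPM in Het livers 2 and 3, against 187, 178 and 162 CPM in WT livers. Pdia6 had 246, 422 and 383 CPM in Het livers against 315, 278 and 309.9 CPM in WT livers. In each, Het liver 1 was below and Het livers 2 and 3 above all WT livers. The log2 fold change of Pdia4 was 0.18 (SE 0.16) and that of Pdia6 0.22 (SE 0.18). P4hb and Pdia5, isomerases outside the 32, did not share the order: P4hb had 1141, 1224 and 1253 CPM in Het livers against 1248, 1196 and 1233 CPM in WT livers, and Pdia5 was highest in WT liver 2.

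Hyou1, a large Hsp70-related chaperone that exchanges nucleotide on BiP, had 121, 261 and 253 CPM in Het livers against 199, 173 and 160 CPM in WT livers. Its level in Het liver 2 was 2.16 times that in Het liver 1. Manf, a small secreted ER protein induced by stress, had 44.0, 90.3 and 89.7 CPM in Het livers against 80.3, 65.3 and 71.8 CPM in WT livers. The J-domain cochaperones of BiP differed from each other. Dnajb11 had 75.8, 129 and 121 CPM in Het livers against 103, 87.3 and 96.4 CPM in WT livers, and Dnajc3 had 217, 346 and 317 CPM in Het livers against 297, 281 and 224 CPM in WT livers. Dnajb9, which helps hold IRE1 inactive, differed, with 57.4, 34.8 and 41.7 CPM in Het livers against 51.5, 61.2 and 38.4 CPM in WT livers. It was the sole chaperone without the shared order, and its log2 fold change was -0.17 (SE 0.23).

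Among the chaperones, the widest differences were in 2 small ER proteins known to be induced by ER stress. Creld2, an ER protein with EGF-like repeats, had 17.8, 74.0 and 63.8 CPM in Het livers against 41.8, 33.7 and 40.4 CPM in WT livers, a 4.15-fold range over the 6 livers. Sdf2l1, a partner of Dnajb11 in chaperone complexes, had 9.85, 39.1 and 31.8 CPM in Het livers against 15.9, 13.1 and 21.1 CPM in WT livers, a 3.97-fold range. Their SDs of log2 level over the 6 livers were wider than those of 99.2% and 99.3% of all genes tested. The group means did not differ beyond this spread: the log2 fold change was 0.43 (SE 0.56) for Creld2 and 0.69 (SE 0.56) for Sdf2l1. Both promoters (Creld2 chr15:88819396-88819645, + strand; Sdf2l1 chr16:17132384-17132633, - strand) are printed because these genes varied most among chaperones. In Creld2 the element lies on the opposite strand, so the capitals there read CGTGG then ATTGG; in Sdf2l1 none of the motifs searched was found.
Creld2 promoter: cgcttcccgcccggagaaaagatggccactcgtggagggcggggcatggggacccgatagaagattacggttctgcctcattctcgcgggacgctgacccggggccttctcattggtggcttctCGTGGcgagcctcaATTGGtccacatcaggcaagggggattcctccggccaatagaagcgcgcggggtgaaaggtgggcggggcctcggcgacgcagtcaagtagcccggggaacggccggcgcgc
Sdf2l1 promoter: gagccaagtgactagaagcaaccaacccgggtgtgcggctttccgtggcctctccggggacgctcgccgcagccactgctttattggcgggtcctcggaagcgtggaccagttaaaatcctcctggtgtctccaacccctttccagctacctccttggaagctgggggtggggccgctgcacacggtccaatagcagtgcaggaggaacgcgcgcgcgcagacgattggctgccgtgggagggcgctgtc

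**Figure D3:**
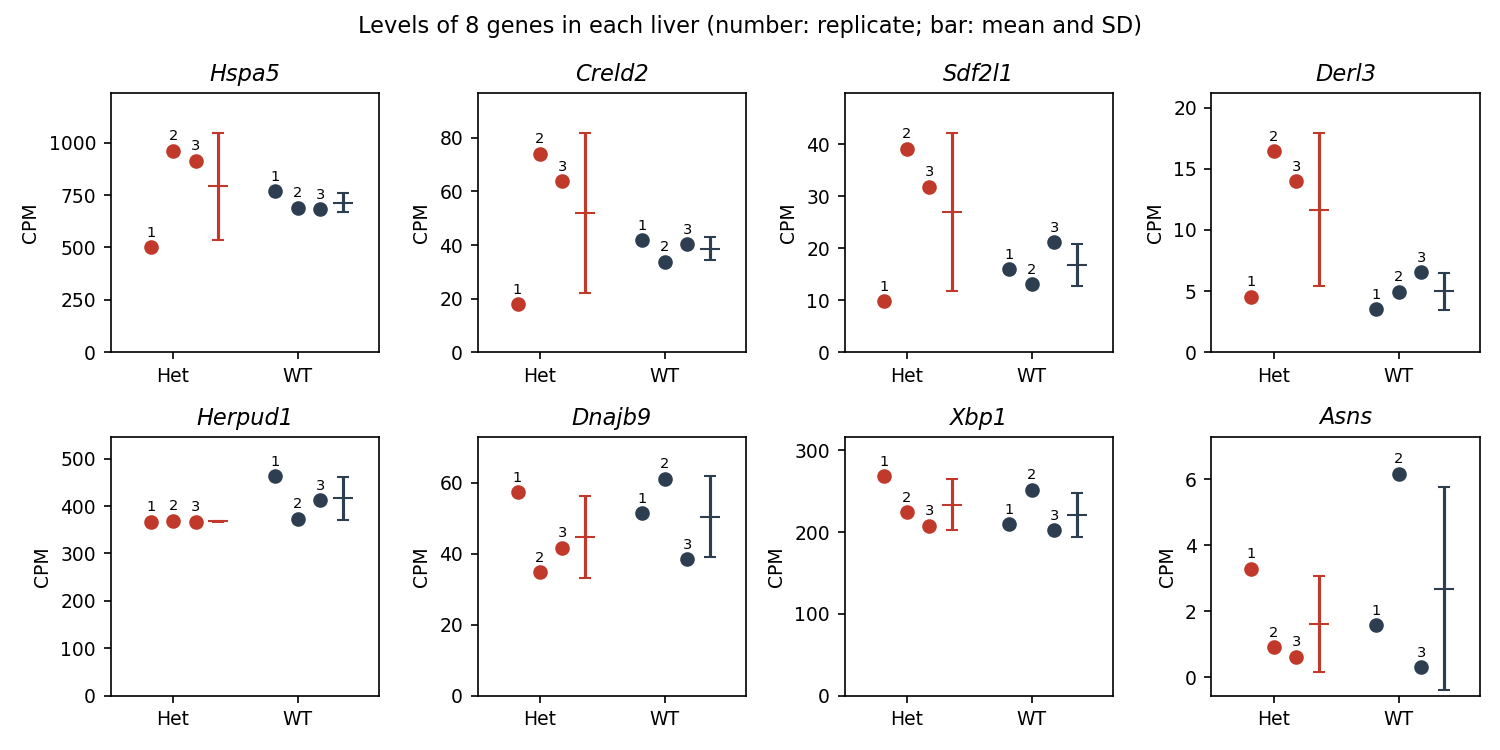
Level in CPM of 8 genes in each liver, with points for livers labelled by replicate, and bars for the mean and SD of each genotype, Het left and WT right. Hspa5, Creld2, Sdf2l1 and Derl3 share Het livers 2 and 3 as their highest, Herpud1 is lower in every Het liver on this TMM scale but overlaps when scaled by total counts, and Dnajb9, Xbp1 and Asns do not share that order.

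Over all 14 chaperones, Het liver 1 was lowest in 13, Het livers 2 and 3 were the 2 highest in 13, and both held in the same 13 genes, all but Dnajb9. Over all genes tested, Het liver 1 was lowest in 13.7%, Het livers 2 and 3 were highest in 9.54%, and both held in 2.33%. Het livers 2 and 3 were also the most alike pair of libraries over genes with at least 10 counts. Their chi-square per degree of freedom was 10.2, against 24.9 to 79.9 for the other pairs. The order was chosen after the values were seen, so it is a description and carries no test. It held in 13 chaperones under all 4 ways of scaling the libraries, under which 9.45% to 15% of all genes had Het livers 2 and 3 highest. All 14 chaperones had a wider range over the Het livers than over the WT livers, against 44.3% of all genes. The median range on the log2 scale was 0.74 in Het livers and 0.22 in WT livers for chaperones, and 0.23 in Het livers and 0.26 in WT livers for all genes.

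**Figure D4:**
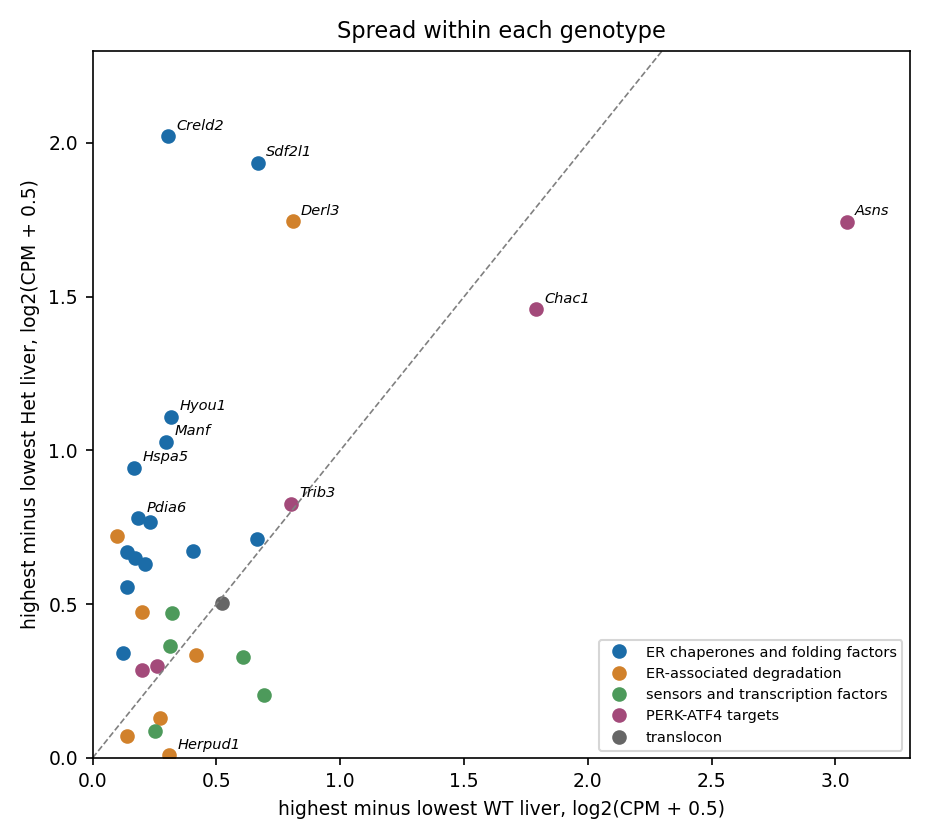
Range of each gene over the 3 Het livers (vertical axis) against its range over the 3 WT livers (horizontal axis), both as log2(CPM + 0.5), with 1 point per gene coloured by role and a dashed line of equal range. All 14 chaperones lie above the line, and Asns lies farthest to the right.

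The 7 genes of ER-associated degradation, which returns misfolded proteins to the cytosol for breakdown, were mixed. Derl3, a derlin of the export channel induced by stress, had 4.54, 16.4 and 14.01 CPM in Het livers against 3.52, 4.95 and 6.53 CPM in WT livers. Het livers 2 and 3 were above all WT livers, and Het liver 1 lay among the WT livers. Its log2 fold change of 1.23 (SE 0.53, 95% interval -0.13 to 2.58) had the smallest unadjusted edgeR p of the 32, 0.0679. Its promoter (chr10:75893148-75893397, + strand) carries the element on the opposite strand, shown in capitals.
Derl3 promoter: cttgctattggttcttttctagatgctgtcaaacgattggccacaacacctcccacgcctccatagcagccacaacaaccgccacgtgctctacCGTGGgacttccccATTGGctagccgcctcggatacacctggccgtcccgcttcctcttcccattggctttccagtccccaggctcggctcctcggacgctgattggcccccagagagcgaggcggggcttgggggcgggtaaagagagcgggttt
The other derlins varied little. Derl1 had 111, 111 and 116 CPM in Het livers against 107, 118 and 109.7 CPM in WT livers, a 1.10-fold range. Derl2 had 105, 95.9 and 104 CPM in Het livers against 107, 94.3 and 114 CPM in WT livers.

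Syvn1, the ubiquitin ligase HRD1 of the degradation complex, followed the chaperone order with 50.5, 83.5 and 72.4 CPM in Het livers against 61.6, 65.1 and 60.8 CPM in WT livers. Edem1, which acts on misfolded glycoproteins, had 114, 156 and 159 CPM in Het livers against 150.3, 131 and 139 CPM in WT livers. Sel1l, the cofactor of HRD1, had 165, 208 and 201 CPM in Het livers against 213, 203 and 160 CPM in WT livers, and its groups overlapped fully. Herpud1, a membrane protein that organises the complex, was the single gene of the 32 whose groups did not overlap, where 8.99% of all genes did not (4.72% with Het above WT and 4.28% with Het below WT). It had 367, 369 and 367 CPM in Het livers against 463, 374 and 412 CPM in WT livers. Its log2 fold change was -0.18 (SE 0.11, 95% interval -0.42 to 0.06, unadjusted p 0.132, adjusted p 0.9998), and the groups overlapped when libraries were scaled by their totals or by totals without the 20 most abundant genes. Its promoter (chr8:94386179-94386428, + strand) holds both the element II and, on the opposite strand, the C/EBP-ATF core, each in capitals.
Herpud1 promoter: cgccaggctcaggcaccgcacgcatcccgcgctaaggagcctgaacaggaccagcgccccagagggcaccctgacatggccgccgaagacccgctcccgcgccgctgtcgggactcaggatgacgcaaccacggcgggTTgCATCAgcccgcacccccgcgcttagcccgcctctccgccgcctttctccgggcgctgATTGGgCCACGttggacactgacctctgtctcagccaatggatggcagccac

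None of the sensors or their transcription factors passed the test. Ern1, which encodes the sensor and endonuclease IRE1, had 104, 103 and 109.5 CPM in Het livers against 111, 107 and 92.7 CPM in WT livers, a log2 fold change of 0.03 (SE 0.09). Xbp1, its splicing substrate, had 268, 225 and 208 CPM in Het livers against 209, 252 and 203 CPM in WT livers. Counts per gene do not separate spliced from unspliced Xbp1, so IRE1 activity was not measured. Atf6, the cleaved sensor, had 61.5, 72.3 and 77.3 CPM in Het livers against 78.0, 90.4 and 59.1 CPM in WT livers. Eif2ak3, which encodes PERK, had 17.3, 17.2 and 14.9 CPM in Het livers against 15.9, 22.4 and 13.7 CPM in WT livers. Atf4, controlled mostly at translation, had 101, 82.7 and 72.7 CPM in Het livers against 71.2, 89.1 and 81.6 CPM in WT livers. In these 5 genes the groups overlapped, and Het livers 2 and 3 were the highest in 0 of 5.

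Among the 5 PERK-ATF4 target genes, Asns, Chac1 and Trib3 varied widely between livers, while Ddit3 and Ppp1r15a did not. Asns, the asparagine synthetase, had 69, 20 and 13 counts in Het livers against 33, 136 and 6 counts in WT livers, or 0.309 CPM in the lowest liver, WT liver 3, and 6.17 CPM in the highest, WT liver 2. Its log2 fold change was -0.76 (SE 1.16), and it was 0.75 without WT liver 2. Chac1, which degrades glutathione, had 3.16, 2.301 and 0.830 CPM in Het livers against 2.89, 5.49 and 1.23 CPM in WT livers. Trib3, a pseudokinase of the response, had 6.27, 3.31 and 5.27 CPM in Het livers against 3.997, 7.26 and 3.96 CPM in WT livers. In all 3 genes WT liver 2 was the highest, and in none were Het livers 2 and 3 the highest pair. The Asns promoter (chr6:7693210-7693459, - strand) is printed for its C/EBP-ATF core in capitals, close to the start.
Asns promoter: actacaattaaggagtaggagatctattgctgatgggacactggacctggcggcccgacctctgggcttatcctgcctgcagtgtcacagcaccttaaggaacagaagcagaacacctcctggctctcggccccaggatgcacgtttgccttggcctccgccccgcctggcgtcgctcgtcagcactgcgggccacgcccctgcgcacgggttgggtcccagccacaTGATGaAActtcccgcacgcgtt

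Ddit3, which encodes the death-linked factor CHOP, had 7.22, 7.69 and 6.15 CPM in Het livers against 6.17, 7.49 and 6.27 CPM in WT livers, a log2 fold change of 0.08 (SE 0.14). Ppp1r15a, the phosphatase subunit GADD34 that reverses eIF2α phosphorylation, had 10.95, 11.41 and 9.27 CPM in Het livers against 9.87, 11.4 and 10.95 CPM in WT livers. Sec61b, a subunit of the channel that admits new proteins, had 32.7, 44.9 and 46.5 CPM in Het livers against 40.6, 33.1 and 47.7 CPM in WT livers. The groups overlapped for all 3.

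**Figure D5:**
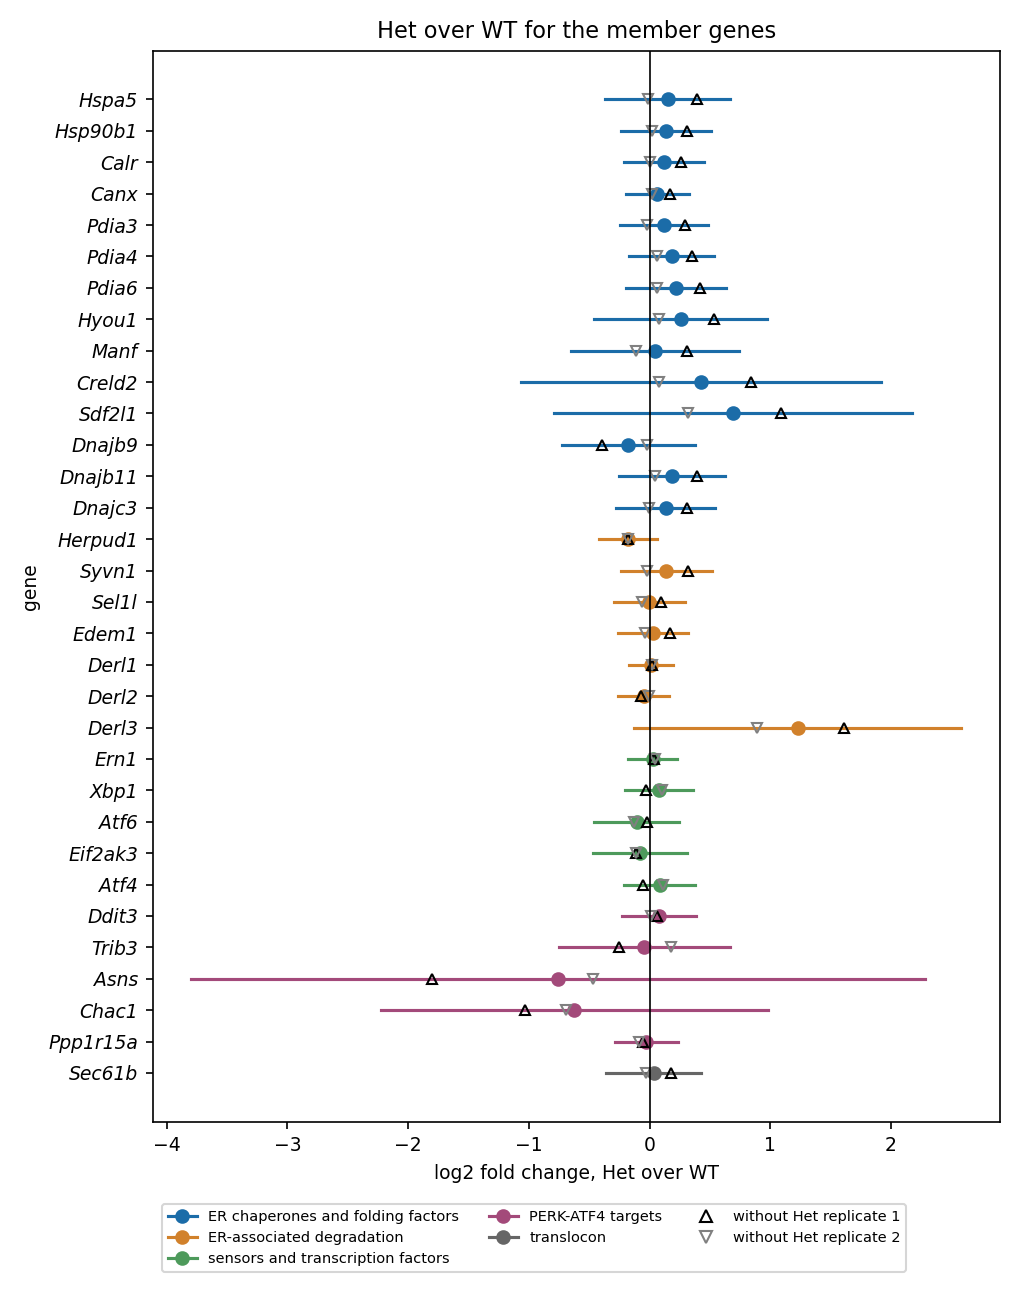
Log2 fold change of Het over WT for the 32 genes with 95% intervals, coloured by role, with upward triangles for the value without Het liver 1 and downward triangles for the value without Het liver 2. Every interval crosses 0, and the chaperones other than Dnajb9 move to the right without Het liver 1.

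Leaving out Het liver 1 changed the picture most. The median log2 fold change of the 32 genes was then 0.17, against -0.00 without Het liver 2, and that of the chaperones was 0.33, against 0.02 without Het liver 2. In the fit without Het liver 1, 12 of 32 genes had an unadjusted p under 0.05, all higher in Het livers, where 3.41% of 12779 genes were higher at that threshold and 7.33% passed in either direction. Creld2 then had a log2 fold change of 0.84 and an adjusted p of 0.0668, Sdf2l1 1.09 and 0.165, and Derl3 1.61 and 0.069. None of the 32 passed an adjusted p of 0.05, which 10 of all genes (0.0783%) did. Het liver 1 had already been seen as the lowest in 13 of the 14 chaperones, which move together over the livers. The small p-values without it follow from that order and are no test of genotype. In the fits that left out another liver, at most 1 of the 32 had an unadjusted p under 0.05.

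The order also appeared in the mean scores of other ER gene lists, though with a narrower range. As a mean log2 level around the 6 livers, the chaperones scored -0.45, 0.36 and 0.28 in Het livers 1 to 3, against 0.03, -0.12 and -0.10 in WT livers. The 7 degradation genes scored -0.22, 0.23 and 0.19 in Het livers against -0.07, -0.09 and -0.04 in WT livers. Translocon and targeting genes scored -0.18, 0.05 and 0.13 in Het livers against 0.04, -0.04 and 0.00 in WT livers. ER oxidoreductase and glycoprotein folding genes scored -0.10, 0.06 and 0.08 in Het livers against 0.03, -0.00 and -0.06 in WT livers, and further degradation genes -0.07, 0.03 and 0.04 in Het livers against 0.03, 0.01 and -0.05 in WT livers. In these lists Het liver 1 had the lowest score and Het livers 2 and 3 the highest. Summed levels differed from this for 2 lists. For the 7 degradation genes WT liver 1 was the highest, at 1105 CPM against 1040 and 1034 CPM in Het livers 2 and 3. Both parts of the order held in 2 of these 7 genes. For oxidoreductase and glycoprotein folding genes WT liver 1, at 3522 CPM, was above Het liver 2, at 3471 CPM. Among translocon genes Het liver 2 scored 0.0515 against 0.0418 in WT liver 1. For the further degradation genes the scores were a near tie, with 0.0331 in Het liver 2 against 0.0308 in WT liver 1. Of those 27 genes, 3 showed both parts of the order. PERK-ATF4 targets, acute-phase, feeding and Kupffer cell genes lacked that order. PERK-ATF4 targets scored 0.35, -0.15 and -0.42 in Het livers against -0.03, 0.72 and -0.47 in WT livers. Acute-phase genes scored 0.39, -0.67 and -0.96 in Het livers against 0.66, 1.47 and -0.90 in WT livers, and feeding and fasting genes -0.07, -0.35 and -0.01 in Het livers against 0.22, -0.00 and 0.21 in WT livers. Kupffer cell markers scored -0.07, 0.48 and -0.39 in Het livers against 0.27, 0.25 and -0.53 in WT livers. Plasma and B cell markers other than Sdc1 summed to 11.5 to 14.6 CPM in Het livers and 12.0 to 12.6 CPM in WT livers. Plasma and B cell, stellate cell and cholangiocyte markers scored highest in Het liver 2 (0.20, 0.32 and 0.26). In Het liver 3 they scored -0.06, -0.13 and -0.02. Endothelial and hepatocyte markers scored highest in WT liver 3 (0.19 and 0.12), and erythroid markers in WT liver 2 (0.45). The part of these states and cell types in the spread of the chaperones was not tested.

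Beyond the 32, another 144 genes of ER folding, translocation, degradation, stress signalling and the ATF4 programme were read from the same fit, of which 140 were tested. None passed an adjusted p of 0.05; at an unadjusted p under 0.05, 1 was higher and 2 were lower in Het livers, which is 2.14% of the 140 against 4.33% of all genes. These 3 are named by rule, and in each the groups did not overlap. All 3 were among the 23 stress signalling genes tested. Of those 23, 13.0% had an unadjusted p under 0.05, against 4.33% of all genes. The groups did not overlap in 21.7% of the 23, against 8.99% of all genes. Eif2ak1, another eIF2α kinase, had 46.1 ± 0.553 CPM in Het livers and 40.9 ± 1.24 CPM in WT livers (SD, n = 3 each). Bax, a pore-forming cell death protein, had 12.8 ± 0.684 CPM in Het livers and 15.2 ± 1.26 CPM in WT livers, and the kinase Eif2ak2 had 16.2 ± 1.56 CPM in Het livers and 19.5 ± 2.41 CPM in WT livers. Of 29 translocon and targeting genes, 19 were lowest in Het liver 1 and 7 had Het livers 2 and 3 highest, where 13.7% and 9.54% of all genes did. The counts were 11 and 9 of 25 ER oxidoreductase and glycoprotein folding genes, and 9 and 6 of 27 further degradation genes. They were 0 and 0 of 23 stress signalling genes, and 4 and 1 of 37 other ATF4 programme genes. Sec61a1, the channel's core subunit, showed both parts of the order, with 135, 192 and 209 CPM in Het livers against 183, 185 and 166 CPM in WT livers. The 2 most abundant translocon and targeting genes did not. Ssr3 had 231, 307 and 334 CPM in Het livers against 330, 299 and 293 CPM in WT livers. Srpr had 228, 240 and 241 CPM in Het livers against 251, 270 and 214 CPM in WT livers. Of the other ATF4 programme genes, 27 of 37 had a log2 fold change below 0, with a median of -0.11. Over all genes tested, 49.7% were below 0 and the median was 0.00. WT liver 2 was the highest in 20 of the 37, where it was the highest in 17.6% of all genes tested.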

How the data were processed

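Poly(A) RNA from frozen livers was extracted with Trizol and made into TruSeq libraries, per the labels' protocols. The authors deposited raw counts for each Ensembl gene, in whole numbers, and TopHat2 2.0.11, HTSeq 0.6.1, DESeq and mm9 are named in the submitters' processing notes without roles. The annotation release and the counting strand are not given in the sources used here. Symbols were matched for 32919 of 37991 IDs. Counts were filtered by genotype with filterByExpr, scaled by TMM and tested in edgeR 4.0.16 (R 4.3.3) by its quasi-likelihood fit with robust estimation, with genotype as the sole factor and adjusted p-values over all 12631 genes. CPM values use TMM library sizes, and log2 levels and scores use a pseudocount of 0.5. Levels per kilobase used GENCODE transcripts (GRCm38), which may differ from the counted annotation. DESeq2 1.42.0, limma-voom 3.58.1, other scalings and filters, a replicate block and each liver left out were the alternatives. The fits were also run on simulated data, and no result of that is given here. No library was a copy of another, though Het livers 2 and 3 were the most alike pair. The members, the lists and the order of livers were chosen with earlier results of these data known. The rule for the genes given liver by liver took the 8 smallest p-values, the sensors and factors, the most variable and the most abundant. The per-liver values of the remaining members, of P4hb, Sec61a1, Ssr3, Srpr, Ero1lb and the heat shock genes were added after they were seen.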

Additional observations from a re-analysis of the deposited data

How the results depend on the processing

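With 3 livers per genotype and a biological coefficient of variation of 0.134, small changes could not be detected. edgeR called 0 of the 32 genes and 0 of the other pathway genes. The counts were also 0 under all 14 alternatives, which were not all edgeR fits. Over all genes, edgeR called 0 (547 at an unadjusted p under 0.05), 1 without the low-count filter, and 0 to 17 with 1 liver left out: 10 without Het replicate 1 and 17 without WT replicate 3. DESeq2 called 14 and limma-voom 0. The replicate numbers did not pair the livers (correlations of deviations -0.02, -0.09 and 0.23), and the fit with the replicate block called 0 genes and 0 of the 32, with a median log2 fold change of 0.07 for the 32. The median of the 32 was lowest without Het replicate 2 (-0.00) and highest without Het replicate 1 (0.17).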

Other observations

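The cytosolic heat shock genes, which serve folding outside the ER, were read in the same livers. Of 16 genes, 0 passed the edgeR test, 8 had a log2 fold change above 0 and 8 below 0, and 4 (25%) showed both Het liver 1 as the lowest and Het livers 2 and 3 as the highest, where 2.33% of all genes tested did. In these 4 genes the order was also seen outside the ER lists, but the heat shock list as a whole lacked it. Its mean log2 scores were -0.04, 0.03 and 0.04 in Het livers 1 to 3, against -0.10, 0.02 and 0.05 in WT livers 1 to 3. Hsp90aa1, the inducible cytosolic Hsp90, had 95.04, 152 and 154 CPM in Het livers 1 to 3, against 125, 116 and 133 CPM in WT livers 1 to 3. Hsp90ab1, its constitutive counterpart, had 586, 756 and 687 CPM in Het livers, against 650.1, 633 and 660.3 CPM in WT livers. The other 2 were Hsph1 and Hspb1.

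The ER stress response element occurred in the promoters of 11 further genes tested, of which 3 had Het livers 2 and 3 as their highest, where 9.54% of all genes tested did. The order was chosen after the values were seen, and a part of the element in it was not tested. All 9 of the response genes that hold the element had that order, which was read from these genes, and so did another 7 response genes: Pdia3, Pdia4, Sdf2l1, Dnajb11 and Edem1, with no match in their windows to this element, and Hyou1 and Manf, with no window. Ero1lb, an ER oxidase that is not one of the response genes, was among the 3 further genes with the element and that order. It had 71.7, 112 and 115 CPM in Het livers against 106, 91.4 and 85.1 CPM in WT livers.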
